A study of Mus musculus with 5 samples.

Results

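The miR-15/16 family is a set of miRNAs whose guide arms share the bases that pair with target mRNAs, and 6 of its members were followed here: mmu-miR-15a-5p, mmu-miR-15b-5p, mmu-miR-16-5p, mmu-miR-195a-5p, mmu-miR-322-5p and mmu-miR-503-5p. They were picked by name from the 1900 mouse miRNAs on the array, by a rule that uses no measured value but was set with earlier results of these data known. RNA came from back skin of female mice in telogen, the resting phase of the hair cycle, and was measured on 5 single-colour miRNA arrays. An array each was available for unwounded skin of 2-year-old mice (aged D0), for skin of 2-year-old mice collected 3, 5 and 7 days after a 3 mm full-thickness punch wound (aged D3, D5 and D7), and for skin of 8-week-old mice that had not been wounded (young D0). No genotype, strain, transgene or drug is given for any of the 5 groups. How many animals went into each RNA sample, and whether they were pooled, is not given either. With 1 array per condition there are no biological replicates, so no difference between conditions could be tested; the precision is limited by how few arrays there are. Young wounds were not analysed here.

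A miRNA guides a silencing complex to mRNAs that carry a match to its seed, bases 2 to 8 from its 5′ end. The miR-15/16 family is known for restraining passage from G1 into S phase, with cyclins D and E, the kinase CDK6 and the survival factor BCL2 among its best known targets. miR-15a and miR-16 are known as tumour suppressors deleted in chronic lymphocytic leukaemia, miR-195 is known for its rise when cardiac muscle stops dividing, and miR-322 (the mouse counterpart of human miR-424) and miR-503 are known for being induced as myoblasts leave the cell cycle. Wound repair sets waves of cell division against the quiescence of resting skin, which is the setting in which their levels were read here.

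The mature sequences, read from the array's own target column, are shown because the seed defines the family while the bases after it are what let an array tell the members apart. Capitals mark the seed. All 6 were equal to their RefSeq entries (GRCm38.p6), and miR-497a-5p, which lies beside miR-195a in the genome and carries the same seed, is shown with them.
miR-15a-5p: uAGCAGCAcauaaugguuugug
miR-15b-5p: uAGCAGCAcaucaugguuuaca
miR-16-5p: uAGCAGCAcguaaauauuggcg
miR-195a-5p: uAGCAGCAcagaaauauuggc
miR-322-5p: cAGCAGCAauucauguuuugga
miR-503-5p: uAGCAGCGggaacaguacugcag
miR-497a-5p: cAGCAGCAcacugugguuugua

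Of the members, 5 share the seed AGCAGCA and miR-503-5p differs from it at the last seed base. Counting positions from 1 at the 5′ end, miR-15a-5p and miR-15b-5p were identical at 18 of 22 positions and differed by A12C, G20A, U21C and G22A. miR-16-5p and miR-195a-5p were the closest pair, identical at 19 of 21 positions and differing by G10A and U11G. How far a probe for one of them also captured the other was not tested. miR-503-5p was identical to each of the others at 11 or 12 positions.

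The members come from 4 gene pairs, placed here by matching the array sequences to RefSeq GRCm38.p6. Mir15a (mature arm at chr14:61632075-61632096, minus strand) and Mir16-1 lie 54 bases apart within the span of the long non-coding gene Dleu2. Mir15b (chr3:69009775-69009796, plus strand) and Mir16-2 lie 66 bases apart within the span of Smc4, which encodes a condensin subunit. The mature miR-16-5p is identical from both loci, so that the array cannot separate them. Mir195a (chr11:70235062-70235082, plus strand) lies 241 bases from Mir497. Mir322 (chrX:53054306-53054327, minus strand) and Mir503 (chrX:53054027-53054049, minus strand) lie 200 bases apart, at the head of an X-linked cluster that also holds Mir351, Mir542 and the Mir450 genes.

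Values are scanned spot intensities in array units, each the mean of the 2 spots that carry a miRNA. A miRNA was called detected when it exceeded the 95th percentile that the 4 empty spots of its array gave, a level that ran from 58.3 to 107 over the 5 arrays, and bright above 2 times that level. Between 589 and 1768 miRNAs were detected and between 210 and 342 were bright. On D3, D5 and D7 the median miRNA spot (68.5, 62.9 and 111) lay above the detection level (58.3, 61.1 and 99.0), so detection there took in most miRNAs on the array. The highest spot on any array read 56169, far above every member. Of the members, 4 were bright on all 5 arrays, miR-322-5p was bright on 4 and detected on all 5, and miR-503-5p was bright on 3 and detected on 4.

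**Figure D1:**
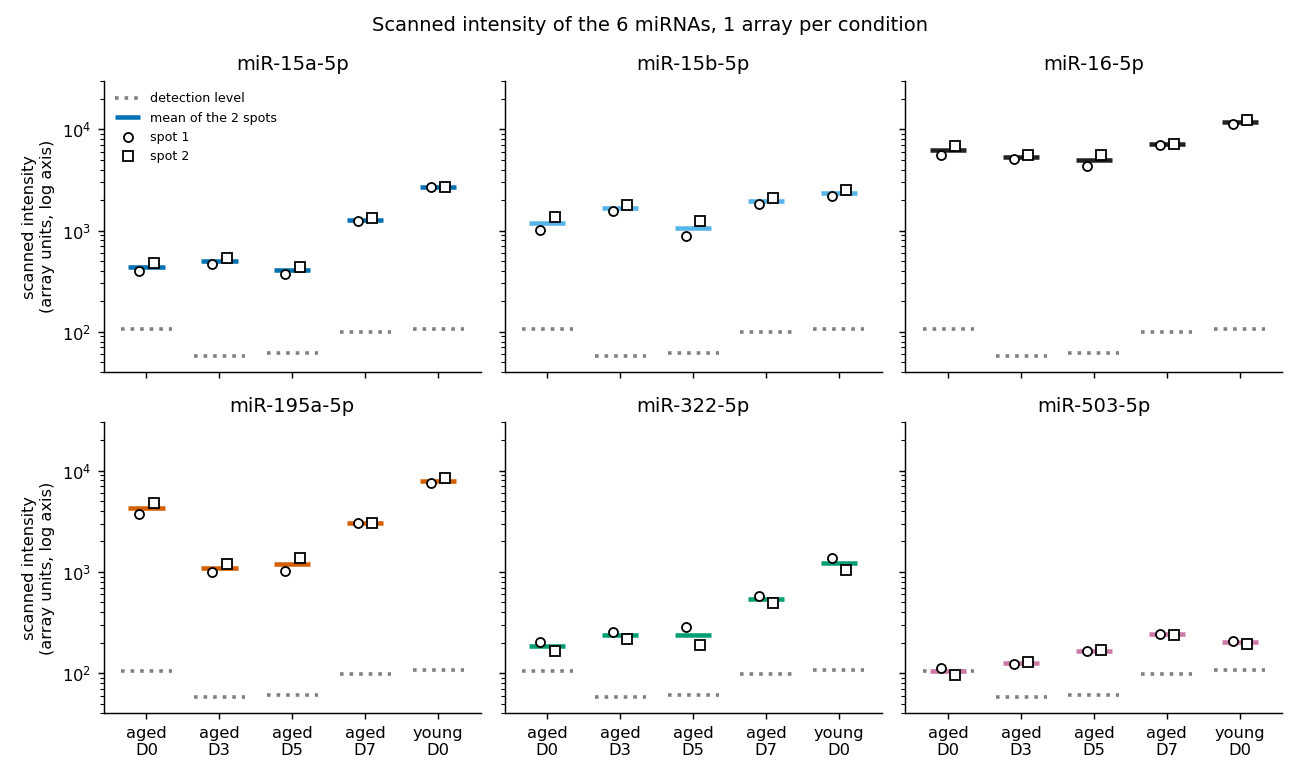
Scanned intensity of the 6 miRNAs (log axis, array units) on the 5 arrays; open circles and squares are the 2 spots, bars their mean and dotted lines the detection level of each array. miR-195a-5p reads 4258 at aged D0 and 1091 at D3, where miR-16-5p reads 6185 and 5326, and miR-503-5p at aged D0 sits at the detection level.

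miR-16-5p, the member at which most of the family's known biology was worked out, read 6185 in aged skin before wounding, 5326 on D3, 4980 on D5, 7086 on D7 and 11792 in young skin. miR-15b-5p, encoded beside the Mir16-2 copy of miR-16, read 1185, 1678, 1067, 1960 and 2348 in the same order. In these scanned values both were highest on the young array and lowest on the D5 array, an order that normalization changed: the normalized intensity of miR-16-5p was highest on D5 (8893) and lowest in young skin (5703), and that of miR-15b-5p was highest on D3 (2202) and lowest in young skin (979.8). miR-15a-5p read 434 before wounding, 496.8 on D3, 404 on D5, 1286 on D7 and 2718 in young skin, so the first 3 aged arrays lay close together and the D7 and young arrays stood above them.

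miR-195a-5p read 4258 before wounding, 1091 on D3, 1202 on D5, 3058 on D7 and 7962 in young skin. The D3 and D5 arrays were its lowest, and on each of these 2 arrays neither of its spots, 997 and 1186 on D3 and 1024 and 1381 on D5, came near the lower D0 spot of 3764. miR-322-5p read 185, 239, 239, 535 and 1218 in the order aged D0, D3, D5, D7, young D0. miR-503-5p, its neighbour on the X chromosome, read 104 (spots 113 and 95.2), then 124 and 129 by its spots on D3, a mean of 166 on D5 and of 243 on D7, and 202 in young skin. Against a detection level of 105 it was not detected at aged D0, and any ratio over that array rests on a D0 value at background. Such a ratio is a bound only within its setting, since other settings gave lower ones.

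The arrays differ in overall brightness and background, so the order of scanned levels over arrays is a description only. Ratios below are of values after background correction (normexp, offset 50) and quantile normalization over the 5 arrays. Repeat spots gave a log2 ratio an SD of 0.14 on D3, 0.13 on D5, 0.25 on D7 and 0.14 for aged over young skin over the bright miRNAs. This spread covers the spots of an array and no difference between animals. Over the miRNAs bright on both arrays, the median ratio was 0.781 for D3 (207 miRNAs), 0.932 for D5 (204), 0.895 for D7 and 1.16 for aged over young (210). Other settings moved that median by more than 0.1 on the log2 scale, to 0.528 on D3 and 0.584 on D5 with scaling to the spike calibration controls, to 1.27 on D7 with scaling to the median, and from 0.425 with the median to 1.55 with the 75th percentile for aged over young. Members are therefore given with their range over 8 settings and, where stated, also relative to the bright median. The settings were quantile, no normalization, 75th percentile, cyclic loess, median, spike controls, no background correction and the authors' processed values. Of these, no normalization, the 75th percentile, the median and the spike controls differ only by a factor per array. A value relative to the bright median or to miR-16-5p is therefore the same in these by construction. miR-322-5p and miR-503-5p were not bright at aged D0. Over all miRNAs detected on either array the median ratio was 0.999 for D3, 1.03 for D5, 1.02 for D7 and 0.990 for aged over young.

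On D3 after wounding, miR-195a-5p was the member that was lower in the wound, at 0.328 of its D0 level (0.333 and 0.323 by its spots). Relative to the bright median it stood at 0.420, and 14 of the 207 bright miRNAs had a lower ratio. Over the 8 settings its ratio ran from 0.167 to 0.421, below 1 in each. miR-16-5p, which differs from it by 2 bases, had a ratio of 1.14, with 0.561 to 1.40 over the settings. Relative to the bright median miR-16-5p stood at 1.45 (1.06 to 1.55). Divided by the ratio of miR-16-5p, that of miR-195a-5p was 0.289, and this quotient, in which a factor common to a whole array cancels, ran from 0.267 to 0.302 over the 8 settings. It shows unequal change of the 2 miRNAs and does not say which of them kept its level.

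The other members were near or above their D0 level on D3. miR-15a-5p had a ratio of 1.01 (0.747 to 1.57 over the settings), miR-15b-5p 1.54 (0.926 to 2.02), miR-322-5p 1.24 (0.847 to 1.78) and miR-503-5p, undetected at D0, 1.64 (0.804 to 3.44). Each of these directions turned with scaling to the spike controls, which put all 6 members below 1. Relative to the bright median the 4 stood at 1.30, 1.97, 1.59 and 2.10, and each was above 1 in all 8 settings, the lowest being 1.29 for miR-15a-5p. miR-15b-5p thus stood above 167 of the 207 bright miRNAs. That the relative values held with the spike controls was fixed in advance, since they equal those with no normalization.

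Counting changes of at least 2-fold, 1 of the 4 members bright on both D3 and D0 was lower and 0 were higher, where 19.8% of all bright miRNAs were lower and 14.5% higher. With every miRNA detected on either array counted, 2.65% were lower and 3.44% higher. The 1 member past 2-fold was miR-195a-5p. The median ratio of the 6 members was 1.19, and 0.775 with scaling to the spike controls, against 0.999 for all miRNAs detected on either array. For the 4 members bright on both arrays it was 1.07, against 0.781 for all bright miRNAs. Higher and lower calls shifted with the scaling also among the bright miRNAs, from 30 higher and 41 lower to 42 and 27 with the median and 15 and 99 with the spike controls.

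**Figure D2:**
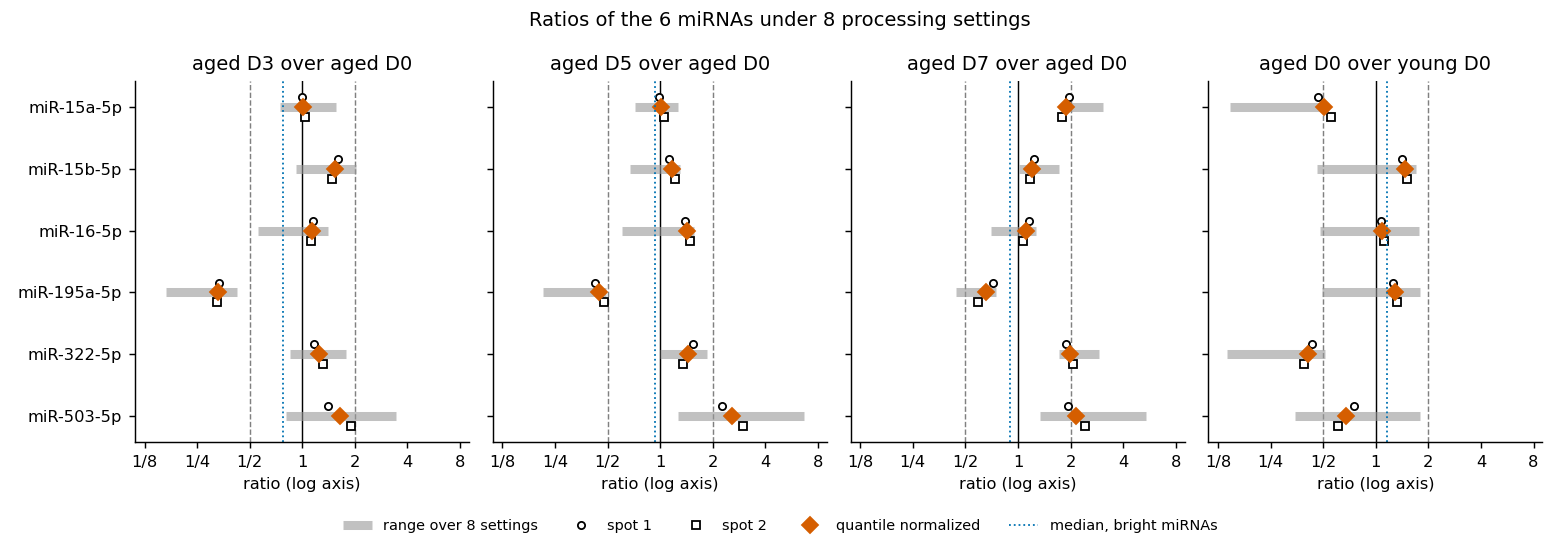
Ratio of each miRNA (log axis) in the 4 comparisons; diamonds are quantile normalized ratios, open symbols the ratios of the single spots, grey bars the lowest to highest ratio over 8 processing settings, dashed lines 2-fold and the dotted line the median of bright miRNAs. miR-195a-5p lies below 1 over the whole bar on D3, D5 and D7, and miR-15a-5p and miR-322-5p do so for aged over young skin.

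On D5 the separation persisted. miR-195a-5p stood at 0.449 of D0 (0.424 and 0.474 by its spots; 0.212 to 0.491 over the settings), with 11 of 204 bright miRNAs lower, and at 0.313 relative to miR-16-5p (0.291 to 0.381). miR-16-5p itself had a ratio of 1.43, above 1 in 5 of the 8 settings and as low as 0.603 with the spike controls. Relative to the bright median it stood at 1.54 (1.03 to 1.62). miR-503-5p, undetected at D0, had a ratio of 2.59, and this was the D5 change whose direction held upwards in all 8 settings (1.27 to 6.70). Only 8 of the 204 bright miRNAs had a higher ratio than miR-503-5p, which was not bright at D0 and lies outside that set. Its upper value came from the authors' processed intensities, in which miR-503-5p reads 22.1 at D0, near the bottom of that table, so that its size rests on a value close to background.

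miR-322-5p had a D5 ratio of 1.44 (0.995 to 1.85), and relative to the bright median 1.54, with 1.43 to 1.92 over the settings. miR-15b-5p had 1.17 (0.676 to 1.29) and miR-15a-5p 1.02 (0.714 to 1.27), the latter within the spread between spots. At least 2-fold, 1 of the 4 bright members was lower and 0 were higher, beside 9.8% lower and 7.84% higher among all bright miRNAs. Of all 6 members, 1 was lower and 1 higher, beside 2.41% lower and 2.87% higher of the 1079 miRNAs detected on either array. The higher one, miR-503-5p, entered that set through the D5 array alone. Of the 1079, 204 were bright on both arrays, so the share is mostly that of miRNAs near background. With no normalization, the 75th percentile, cyclic loess or the spike controls, miR-503-5p did not reach 2-fold and the split was 0 higher and 1 lower. Bright miRNAs went from 16 higher and 20 lower to 25 and 21 with cyclic loess and 3 and 82 with the spike controls.

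On D7, miR-15a-5p, miR-322-5p and miR-503-5p lay above D0 and miR-195a-5p was nearer to it. miR-15a-5p had a ratio of 1.88 (1.96 and 1.80 by its spots) and a range of 1.80 to 3.06 over the settings. miR-322-5p had 1.98 (1.89 and 2.07, with 1.72 to 2.92 over the settings). miR-503-5p, undetected at D0, had 2.16 (1.93 and 2.42, with 1.33 to 5.42). Relative to the bright median the 3 stood at 2.09, 2.21 and 2.41. Of the bright miRNAs, 16 had a higher ratio than miR-15a-5p and 16 a higher ratio than miR-322-5p, which was not bright at D0 and lies outside that set. miR-15a-5p changed mostly between D5 and D7, with a D7 over D5 ratio of 1.84 (1.76 to 4.17 over the settings) after a D5 over D3 ratio of 1.01.

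Spots disagreed more in the D7 over D0 ratio than in the other comparisons, and those of miR-195a-5p gave 0.723 and 0.590 around its ratio of 0.653. Its D7 spots themselves read close together, 3045 and 3071, while its aged D0 spots read 3764 and 4752. That ratio stayed below 1 in all 8 settings (0.441 to 0.748), and relative to miR-16-5p it was 0.588 (0.543 to 0.626). From D5 to D7 miR-195a-5p had a ratio of 1.46 (1.41 to 3.43). miR-15b-5p had a D7 over D0 ratio of 1.20 (1.01 to 1.72). For miR-16-5p it was 1.11 (0.705 to 1.26), within the spread between spots. Relative to the bright median miR-16-5p stood at 1.24 (0.943 to 1.33).

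Of the 4 bright members, 0 were 2-fold higher or lower on D7, beside 7.88% higher and 10.3% lower among all bright miRNAs. Of all 6 members 1, miR-503-5p, was higher and 0 were lower, beside 2.56% and 1.79% of the miRNAs detected on either array. miR-503-5p entered that set through the D7 array alone. miR-15a-5p and miR-322-5p lay just inside the threshold, and with no normalization, the median, the spike controls or the authors' values these 2 and miR-503-5p all passed it. With the 75th percentile 0 were higher and 1, miR-195a-5p, was lower. For bright miRNAs the split of 16 higher and 21 lower became 42 and 5 with the median and 13 and 40 with the 75th percentile.

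**Figure D3:**
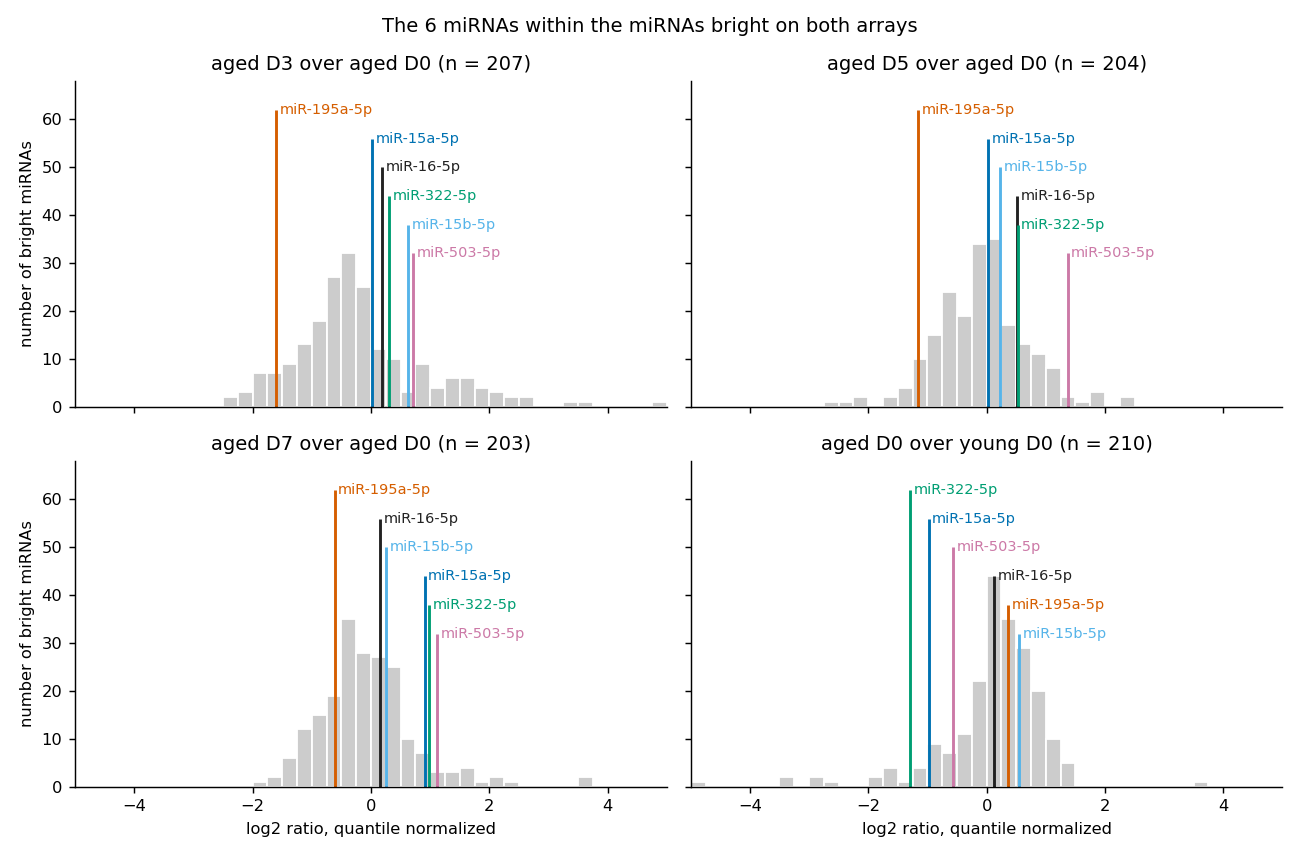
Histograms of the log2 ratio (quantile normalized) over the miRNAs bright on both arrays of each comparison, with a coloured line at each of the 6 miRNAs; line height only separates the names. miR-322-5p and miR-503-5p are marked although they were not bright at aged D0. miR-195a-5p lies in the lower tail on D3 and D5, and miR-322-5p and miR-15a-5p in the lower tail for aged over young skin.

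In unwounded skin the question was how the family's levels differed between ages. miR-322-5p in aged skin stood at 0.409 of its level in young skin (0.431 and 0.389 by its spots), and miR-15a-5p at 0.507 (0.466 and 0.551). Both were lower in aged skin in all 8 settings, miR-322-5p between 0.141 and 0.513 and miR-15a-5p between 0.147 and 0.535. Relative to the bright median they stood at 0.354 and 0.438, with 13 and 17 of the 210 bright miRNAs below them. miR-322-5p was not bright in aged skin and lies outside that set. miR-503-5p, undetected in unwounded aged skin, had a ratio of 0.675, but this turned to 1.78 with the 75th percentile.

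The other 3 members showed no direction that held across the scalings. miR-15b-5p was at 1.46 of young skin (0.463 to 1.69), miR-195a-5p at 1.29 (0.491 to 1.79) and miR-16-5p at 1.09 (0.482 to 1.76). Relative to the bright median miR-15b-5p stood at 1.26 (1.08 to 1.26) and miR-195a-5p at 1.12 (1.07 to 1.15), and miR-16-5p at 0.941 (0.872 to 1.13). miR-15a-5p and miR-15b-5p, which differ by 4 bases, thus had unequal ratios, and so had miR-15a-5p and miR-16-5p, with a quotient of 0.466 (0.304 to 0.467).

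At least 2-fold, 0 of the 4 bright members were higher or lower in aged skin, beside 7.62% higher and 8.1% lower among all bright miRNAs. Of all 6 members 0 were higher and 1, miR-322-5p, was lower, beside 2.31% and 6.03% of the 779 miRNAs detected on either array. The number lower was 6 with the median, 3 with the authors' values, 2 with no normalization, cyclic loess or the spike controls and 0 with the 75th percentile. Bright miRNAs went from 16 higher and 17 lower to 1 and 124 with no normalization and 52 and 15 with the 75th percentile.

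Set side by side, miR-15a-5p, miR-322-5p and miR-503-5p had the 3 highest D7 over D0 ratios and were the 3 members with a ratio under 1 for aged over young skin. Both comparisons share the aged D0 array. The D7 array set directly against the young array left miR-15a-5p at 0.950 (0.448 to 0.964 over the settings) and miR-322-5p at 0.810 (0.411 to 0.883). miR-503-5p went the other way, at 1.46 of young skin on D7, above 1 in all 8 settings (1.10 to 2.37). On D3 the ratio over young skin was 0.513 for miR-15a-5p (0.148 to 0.563), 0.508 for miR-322-5p (0.161 to 0.612) and 1.11 for miR-503-5p (0.530 to 2.01). All ratios over young skin share the single young array.

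**Figure D4:**
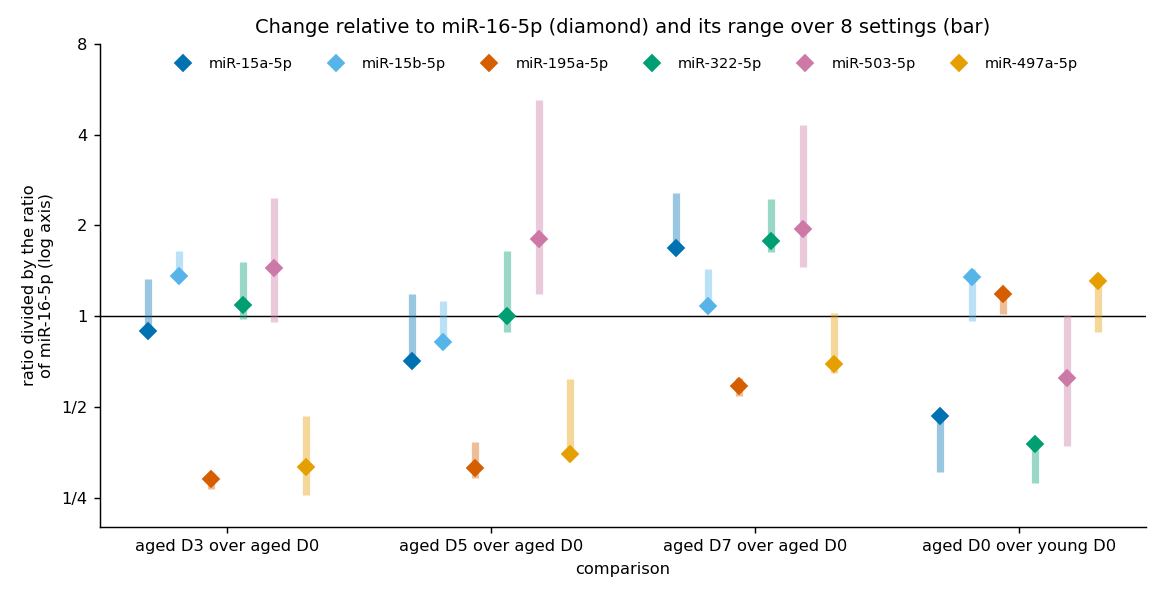
Ratio of 5 members and of miR-497a-5p divided by the ratio of miR-16-5p (log axis) in the 4 comparisons; diamonds are quantile normalized values and bars the lowest to highest over 8 settings. miR-195a-5p and miR-497a-5p lie low on D3 and D5, and miR-15a-5p and miR-322-5p lie low for aged over young skin.

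The neighbour of miR-195a-5p, miR-497a-5p, followed it. It read 670 before wounding, 269 on D3, 325 on D5, 804 on D7 and 1456 in young skin, with the D3 and D5 arrays again the lowest. Against D0 it had a ratio of 0.359 on D3, then 0.500 on D5, and 0.771 by D7. For aged over young skin it was 1.42, a direction that did not hold over the settings (0.427 to 1.56). D3 and D5 were below 1 in all 8 settings (0.262 to 0.551 and 0.373 to 0.662), while D7 went above 1 with no normalization, the median and the spike controls, up to 1.22. The seed of miR-497a-5p is that of miR-195a-5p and also of other members. What part of each signal came from its own miRNA was not tested.

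The remaining arms of the clusters lay close to background and could not be followed in the same way. miR-195a-3p read between 72.7 and 132 and was detected on 4 arrays, miR-15a-3p between 69.4 and 152 on 5, miR-16-1-3p between 62.9 and 131 on 4, and miR-15b-3p, miR-16-2-3p and miR-497b were detected on 3 each and miR-497a-3p on 2. None of these was bright on any array. In the X-linked cluster miR-351-5p was bright on 4 arrays, read 123 on D3, 188 on D5, 226 on D7 and 247 in young skin, and had ratios of 1.06, 1.90 and 1.32 on D3, D5 and D7. miR-322-3p, the passenger arm of miR-322, read 221 in young D0 and between 82.5 and 151 on the aged arrays. Its aged over young ratio of 0.859 rests on an aged D0 reading of 124, 1.18 times the detection level. It is therefore not directly comparable in size with the 0.409 of the guide arm. The other 9 arms of the X-linked cluster were bright on 0 arrays.

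Beside the 6 members, 6 further miRNAs on the array carry the seed AGCAGCA: miR-497a-5p, miR-1907, miR-195b, miR-6342, miR-6353 and miR-6419. miR-1907 was bright on all 5 arrays at 498, 304, 506, 648 and 1796, with ratios of 0.510, 1.12 and 0.767 on D3, D5 and D7 and 0.947 for aged over young. The other 4 read at most 125 on any array, and miR-195b was detected only at D3. Bright on at least 1 array were thus the 6 members, miR-497a-5p and miR-1907.

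The miRNAs of the miR-17-92, miR-106a-363 and miR-106b-25 clusters, known for promoting cell division, are a second set that acts on the cell cycle and served for comparison. Of their 12 guide arms, 9 were bright on both arrays in each comparison. At least 2-fold, 0 of the 9 had changed by D3, where 14.5% of all bright miRNAs were higher and 19.8% lower, and 0 by D5, beside 7.84% and 9.8%. On D7 0 were higher and 1 was lower (miR-92a-3p, 0.497), beside 7.88% and 10.3%. In aged against young skin 1 was higher (miR-92a-3p, 2.35) and 0 were lower, beside 7.62% and 8.1%. Their median ratio was 0.954 on D3, 0.970 on D5, 0.945 on D7 and 1.15 for aged over young, against 1.19, 1.30, 1.5 and 0.857 for the 6 members. Over those bright on both arrays the cluster medians were 0.907, 0.982, 0.871 and 1.22, and those of the family 1.07, 1.09, 1.15 and 1.18. The gaps on the wound days were thus smaller, and for aged over young both medians lay above 1. The median of all 12 guide arms went to the other side of 1 under other scalings in every comparison, with 1.23 on D3, 1.07 on D5 and 1.31 on D7 with the median and 0.465 for aged over young. With the median the family stood at 1.63, 1.23 and 1.97 on these days, above the clusters as with quantile normalization.

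By mean-centred log2 profile over the 5 arrays, the miRNAs nearest to miR-195a-5p among those bright on all arrays were miR-143-3p, miR-193b-3p, miR-497a-5p, miR-151-5p and miR-30c-5p, at root-mean-square distances of 0.0937 to 0.147. miR-143-3p, abundant in smooth muscle and mesenchyme, had ratios of 0.356, 0.447 and 0.578 on D3, D5 and D7. Of the 4 markers of these tissues given below, 2 had ratios above 1 on D5 and 2 on D7. miR-16-5p itself had 115 of these miRNAs nearer to miR-195a-5p than it was, at a distance of 0.728. Nearest to miR-16-5p were miR-574-3p, miR-22-3p, miR-20a-5p, miR-6239 and miR-467f, at 0.135 to 0.177, with miR-15b-5p at 0.304 as the nearest family member. miR-6239 was the brightest miRNA on all 4 aged arrays, where quantile normalization gives the top rank 1 common value, so its flat profile there is set by that step and its distance is not a measured likeness. These distances rest on 5 arrays that share their normalization and are a description.

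Markers of cell types moved in the same comparisons. Epithelial markers (miR-203-3p, miR-205-5p and the miR-200 family, that is miR-141-3p, miR-429-3p, miR-200c-3p, miR-200b-3p and miR-200a-3p) were detected, 7 of 7, on each array of this skin, and their scanned intensities summed to 38489 before wounding, 16244 on D3, 17340 on D5, 27476 on D7 and 46538 in young skin. After normalization the epithelial sum came to 37284 before wounding and to 21290.5, 29054 and 24746 at the 3 wound times, and young skin, at 21400, was no longer the highest. On D3 the normalized ratio was below 1 for 6 of the 7, and miR-200c-3p was at 2.10 (1.28 to 3.03 over the settings). Skeletal muscle markers (4 of 4 detected on each array) summed to 32805, 6780, 7225, 15455 and 64973, and all 4 had normalized ratios below 1 on D3, D5 and D7, with a median ratio of 0.294 on D3. Smooth muscle and mesenchymal markers, also 4 of 4 detected on each array, summed to 16265, 6818, 9524, 19756 and 32872. Normalized, the smooth muscle and mesenchymal sum was 16933 at aged D0 and 8978 on D3 but 16130 on D5, where 2 of its 4 markers had ratios above 1, up to 1.77, and the median was 0.932. On D7 that sum was 18804, and 2 of the 4 markers had ratios above 1, up to 2.17. On D3 all 3 normalized sums were lower than at aged D0, as miR-195a-5p and miR-497a-5p were. The normalized sums of the erythroid and endothelial markers, given below, were lower too. On D5 the skeletal muscle sum (12087 against 28504) and the epithelial sum were lower, and that of smooth muscle and mesenchyme was near its D0 value. Their part in those ratios was not tested.

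Leukocyte markers (miR-223-3p, miR-142a-3p, miR-142a-5p, miR-155-5p and miR-150-5p) summed to 901 at aged D0, where 4 of 5 were detected and miR-142a-3p was not, and to 4071, 2389, 4172 and 5829 on D3, D5, D7 and in young D0, with 5 of 5 detected. The aged D0 array thus had the lowest sum and the young array the highest, as for miR-322-5p. In normalized intensities the sum was again lowest at aged D0 (1088), but it was highest on D3 (5328), with 2652 in young skin. Of the D3 sum, miR-223-3p made up 3772. On D3 4 of the 5 markers had normalized ratios above 1. The other, miR-150-5p, was at 0.743 and was the only 1 bright on both D3 and D0. The part of leukocytes in the ratios of miR-15a-5p, miR-322-5p and miR-503-5p was not tested. Erythroid markers, with 2 of 3 detected on 4 arrays and 3 of 3 on D3, summed to between 982 and 2496, and of the endothelial pair miR-126a-3p was detected on every array. Normalized, the erythroid sum was 2412 at aged D0 and 1248 on D3, and the endothelial sum was 3412 and 2449. In such bulk samples, fewer cells of a type and less RNA per cell cannot be told apart.

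Base composition also went with the ratios on D3. Of the bright miRNAs, the 54 with a GC content at or under 42.9%, the lower quartile, had a median D3 ratio of 0.656, and the 52 at or above 61.4% had 1.53. The members have a GC content of 40.9% to 45.5%, apart from miR-503-5p with 56.5%. Set beside miRNAs of low GC content, the D3 ratio of 0.328 for miR-195a-5p (42.9% GC) was still lower and those of miR-15a-5p, miR-15b-5p and miR-322-5p (40.9% each) were higher. On D5 the medians of low and high GC content were 0.907 and 1.16, on D7 0.982 and 1.03, and for aged over young 1.04 and 1.26. The part of base composition in the ratios was not tested.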

How the data were processed

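Total RNA of 5 skin samples was hybridised by a service provider to 5 single-colour (Cy3) miRNA arrays. The authors deposited the scanner's spot intensity on a linear scale, not normalized, with empty background columns, and a table of processed intensity per miRNA. How that table was normalized, and its scaling, are not given in the sources used here. The array design foreseen for a background column was therefore run on spot intensity alone: normexp with an offset of 50 in limma 3.58.1 (R 4.3.3), log2, quantile normalization over 5 arrays without control spots, and the mean of 2 spots. Tables were made in Python 3.11.15 with pandas 2.3.3 and numpy 2.4.6, figures with matplotlib 3.10.9. Where a miRNA was undetected on 1 array of a pair, its ratio became a bound, taken against its own value there or the lowest detected one, whichever was higher. For miR-503-5p this bound equalled the quantile normalized ratio. Some other settings gave ratios nearer to 1 or past it, so it is given as a ratio. In processed values, those below 1 were set to 1.

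Groups came from the labels. No test was possible with 1 array per condition. Named were the 6 members, seed carriers, cluster arms, the 5 nearest profiles to miR-16-5p and to miR-195a-5p, the proliferation clusters and the cell type markers. Members, lists and rules were chosen with earlier results of these data known. Alternatives were the scalings, spots, processed values and thresholds of the closing section; centring on the bright median was added after the data were seen.

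The normalization was tested on simulated data with known 3-fold changes. All had the right direction, but their size was understated, so ratios here may be too close to 1. The simulation gave every array the same underlying signals, apart from the known changes in bright miRNAs. It therefore does not show how the normalization acts on arrays that differ in overall brightness, as these do, or on miRNAs near background. A first version of that test, over all bright miRNAs, did not reach its pass mark, because a sizeable part of the 3-fold rises stayed under 2-fold. The simulated miRNAs and the pass mark were then changed. The 2-fold counts here may therefore miss true rises of 3-fold, and not only changes near 2-fold.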

Additional observations from a re-analysis of the deposited data

How the results depend on the processing

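The family's median ratio and counts of changed members depended on the scaling. The family's median log2 ratio was 0.25 on D3, 0.38 on D5, 0.58 on D7 and -0.22 for aged over young skin. On D3 it reversed to -0.37 with the spike controls, and became 0.44 with cyclic loess, 0.70 with the median of all miRNAs, 0.61 with the processed values, 0.60 when centred on the bright median and 0.10 over the bright members. On D5 it reversed to -0.11 with no normalization, -0.0097 with the 75th percentile and -0.52 with the spike controls, and was 0.13 over the bright members. On D7 it was 0.92 with no normalization, 0.22 with the 75th percentile, 0.98 with the median, 0.94 with the spike controls, 0.84 with the processed values and 0.21 over the bright members. For aged over young skin it reversed to 0.79 with the 75th percentile and 0.24 over the bright members, and was -0.96 with no normalization, -0.0049 with cyclic loess, -1.08 with the median, -0.65 with the spike controls, -0.69 with the processed values and -0.43 when centred.

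Members at least 2-fold changed numbered 1 on D3, 2 on D5, 1 on D7 and 1 for aged over young skin. On D3 there were 3 with the processed values, 2 when centred and 3 at 1.5-fold. On D5 there was 1 with no normalization, the 75th percentile, cyclic loess or the spike controls, and 0 at 3-fold. On D7 there were 3 with no normalization, the median, the spike controls, the processed values or when centred, 0 by the first spot, 2 by the second, 4 at 1.5-fold and 0 at 3-fold. For aged over young skin there were 2 with no normalization, cyclic loess, the spike controls, the first spot, when centred or at 1.5-fold, 6 with the median, 3 with the processed values and 0 with the 75th percentile or at 3-fold.

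Of the single members' values, 122 stayed within the spread between spots and 118 moved beyond it. No paired analysis was possible because there is only 1 array for every condition, and for the same reason no replicate was left out. Signal limits miR-503-5p, and in part miR-322-5p, both close to background at aged D0.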
